A study of Mus musculus with 73 samples.

Results

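The oxidative phosphorylation genes encoded in the nucleus were followed in microglia, the macrophages that live in brain tissue, sorted from a mouse model of Alzheimer's disease with and without the receptors CD33 and TREM2. Rows were taken by gene name, as subunits of complex I (Ndufa, Ndufb, Ndufc, Ndufs and Ndufv names), complex II (Sdha to Sdhd), complex III (Uqcr names), complex IV (Cox4 to Cox8 names) and complex V (Atp5 names), leaving out pseudogene names. This gave 85 of 39179 genes, of which 77 had at least 1 RPKM in at least 2 libraries of each of the 3 deposited tables and were kept. RPKM is a gene's read count scaled to its length and to the size of the library. The 77 genes were 37 of complex I, 4 of complex II, 8 of complex III, 14 of complex IV and 12 of complex V, with Atp5s and Atp5sl, which carry Atp5 names but are not counted as subunits here. Complexes were assigned by name, so complex I includes Ndufa4, whose protein is also placed in complex IV, and Ndufa4l2. At the edge of the filter, Cox7a1, Ndufa4l2 and Cox7c were the lowest members kept, with means of 0.623, 0.856 and 1.27 RPKM in the 5xFAD libraries at 4 months. Cox4i2 and Cox8b were left out because only 1 library of the 4-month table reached 1 RPKM, and Atp5g1, Atp5g2, Atp5l, Atp5l2, Cox7b2 and Cox8c because none did. Much of the sequence of Atp5g1, Atp5g2, Atp5l and Atp5l2 also occurs in other genes, as given below, so their low values are uncertain.

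The mice were C57BL/6, and their brain cells were sorted by fluorescence on the surface proteins CD11b and CD45. 5xFAD mice carry human transgenes with mutations of familial Alzheimer's disease, driven by the Thy1 promoter, which is active in neurons. At 4 months there were 2 5xFAD;CD33-/-;TREM2-/-, 4 5xFAD;TREM2-/-, 4 5xFAD;CD33-/-, 9 5xFAD and 7 WT libraries in a single table. At 8 months a table of its own held 12 5xFAD;CD33-/- and 11 5xFAD libraries, and another held 8 5xFAD;TREM2-/-, 10 5xFAD and 6 WT libraries. Every knockout group carried the 5xFAD transgenes, and no knockout without them was among the 10 groups. The tables were normalised separately by the authors, so comparisons were made within a table.

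Oxidative phosphorylation takes place in the inner mitochondrial membrane. Complex I takes electrons from NADH and complex II takes them from succinate, complex III passes them to cytochrome c, and complex IV hands them to oxygen. Complexes I, III and IV pump protons, and complex V uses the resulting gradient to make ATP. The catalytic core of complex IV and part of complexes I, III and V are encoded by mitochondrial DNA, and all other subunits, including the whole of complex II, by nuclear genes whose products are imported. Nuclear subunit genes are known to be controlled in part by the transcription factors NRF1, GABP (an ETS family factor) and YY1. Microglia in culture are known to shift between oxidative phosphorylation and glycolysis when activated.

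Promoters of 61 of the 77 genes, from 250 bases before to 50 bases after the RefSeq start, were available for the build of the data (GRCm38). The search covered both strands for 3 short motifs, an NRF1 core (GCGCATGCG), an ETS motif (CCGGAAGT) and a YY1 motif (AAGATGGCG). The NRF1 core is nearly its own reverse complement, so matches on both strands can overlap, as in Atp5k. Uqcr11 was the only member with different motifs, the ETS motif in the stretch printed here and the NRF1 core outside it. At least 1 of the 3 motifs was found in 17 of the 61 promoters (27.9%), against 7.5% of the 27025 genes in the table. The YY1 motif was found in 7 (11.5%, against 1.6% of all genes), the NRF1 core in 6 (9.8%, against 2.0%) and the ETS motif in 5 (8.2%, against 4.3%). The 27025 genes were taken whatever their expression, while the members had passed a filter on it, so these shares are not matched for expression. Cox6a2 and Cox4i1 were not among the 61. The 150 bases before the start are given for 6 genes that show the range, with the motif in capitals where it was found. Ndufa1, which has the strongest change in complex I below, holds none of the motifs in its window. Ndufa8 (complex I) and Atp5k (complex V) hold the NRF1 core, Uqcrh and Uqcr11 (complex III) the ETS motif, and Atp5j (complex V) the YY1 motif.
Ndufa1, chrX:37191239-37191388, minus strand: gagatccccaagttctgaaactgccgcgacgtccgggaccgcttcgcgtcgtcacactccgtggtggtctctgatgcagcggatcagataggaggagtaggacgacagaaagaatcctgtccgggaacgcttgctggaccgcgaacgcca
Ndufa8, chr2:36049339-36049488, minus strand: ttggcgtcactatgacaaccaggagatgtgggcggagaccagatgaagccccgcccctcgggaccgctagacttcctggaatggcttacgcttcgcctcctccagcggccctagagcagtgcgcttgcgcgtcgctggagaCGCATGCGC
Uqcrh, chr4:116075071-116075220, minus strand: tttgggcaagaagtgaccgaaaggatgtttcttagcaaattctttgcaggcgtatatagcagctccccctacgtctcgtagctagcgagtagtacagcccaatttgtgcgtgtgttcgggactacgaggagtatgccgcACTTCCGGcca
Uqcr11, chr10:80406822-80406971, minus strand: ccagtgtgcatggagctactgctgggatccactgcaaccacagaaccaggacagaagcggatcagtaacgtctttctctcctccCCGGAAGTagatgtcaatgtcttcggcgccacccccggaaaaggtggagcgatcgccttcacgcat
Atp5j, chr16:84834977-84835126, minus strand: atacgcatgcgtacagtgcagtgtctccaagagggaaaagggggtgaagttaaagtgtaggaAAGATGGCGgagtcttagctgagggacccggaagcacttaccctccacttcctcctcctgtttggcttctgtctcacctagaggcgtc
Atp5k, chr5:108434400-108434549, minus strand: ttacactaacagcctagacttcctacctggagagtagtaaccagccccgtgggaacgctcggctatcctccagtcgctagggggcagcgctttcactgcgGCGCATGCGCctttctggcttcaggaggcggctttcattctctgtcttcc
A match is a match of letters only. Members with and without a motif are set beside each other after the comparison of 5xFAD and WT at 8 months.

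Each library held between 21.19 and 79.65 M reads assigned to genes, with a median of 35.48 M. Trem2 stood at 13.7 to 36.3 RPKM in all libraries labelled TREM2-/-, against 627.5 RPKM or more in the 5xFAD libraries of the same tables. Cd33 was 0.0526 to 0.205 RPKM at 4 months in 5xFAD;CD33-/- libraries and had a median of 0.0781 RPKM in those at 8 months, against 101.6 RPKM or more in the 5xFAD libraries of the same tables. It went against the label in 2 libraries, at 14 RPKM in the library labelled 5xFAD;CD33-/-;TREM2-/- replicate 1 and, at 8 months, at 19.1 RPKM in replicate 7 of the libraries labelled 5xFAD;CD33-/-. Without the library labelled replicate 7, 0 members were called between 5xFAD;CD33-/- and 5xFAD at 8 months, as with it. The 7 microglial markers were detected in every group, and their summed level was 7000 RPKM or more in each library of the 8-month table with WT. Libraries also carried RNA of other cell types. The summed level of 8 endothelial markers was 387.4 to 1196 RPKM in 5xFAD, 572.7 to 1476 RPKM in 5xFAD;TREM2-/- and 179.6 to 489.5 RPKM in WT libraries at 8 months. In bulk RNA, fewer cells of a type and less RNA per cell cannot be told apart. The titles of 3 libraries of the 8-month table with WT carry 2 animal numbers each. Number 5 occurs in 2 of the 8 5xFAD;TREM2-/- libraries, replicate 5 and the library numbered 4 and 5, so these may share an animal. Without the library numbered 4 and 5, 34 members were called between 5xFAD;TREM2-/- and 5xFAD at 8 months in place of 40. The labels do not otherwise say that each library came from a separate animal, so p-values measure the spread between libraries.

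At 4 months, 5xFAD microglia carried more RNA of 20 of the 77 genes than WT microglia, and no member was lower. The calls come from limma on log2(RPKM + 0.5), with a Benjamini-Hochberg adjusted p under 0.05 over all 13024 genes tested in the table. Of all genes tested, 16.7% were called, 8.95% higher and 7.79% lower. The members' median log2 difference was 0.12, against -0.02 over all genes, and 57 of the 77 were above 0. Complex IV had the highest share, with 8 of 14 called higher, followed by 5 of 12 of complex V, 3 of 8 of complex III, 4 of 37 of complex I and 0 of 4 of complex II.

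Cox6a2, the isoform of cytochrome c oxidase subunit 6A known from heart and skeletal muscle, lies on chromosome 7 (128205435 to 128206387, minus strand, GRCm38). It ranged in 5xFAD libraries at 4 months from 14.3 to 42.8 RPKM (median 24.5), against 4.06 to 5.87 RPKM (median 4.77) in WT libraries. The groups did not overlap. The mean was 27.0 ± 10 RPKM in 5xFAD (SD, n = 9) and 4.91 ± 0.62 RPKM in WT (SD, n = 7), a log2 change of 2.26 ± 0.21 (SE; limma adjusted p = 4.93e-08). This corresponds to a 4.79-fold higher level on the log2(RPKM + 0.5) scale.

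The ubiquitous isoform Cox6a1 (chromosome 5, 115345642 to 115348981, minus strand) rose less. It was between 92.6 and 120.9 RPKM in 5xFAD (median 107.6) and between 73.9 and 87.0 RPKM in WT (median 79.6), again with no overlap, and its log2 change was 0.39 ± 0.064 (SE; limma adjusted p = 0.000131). The remaining called members counted in complex IV by name were Cox4i1, Cox5b, Cox6b1, Cox7a2, Cox7a2l and Cox8a, with log2 changes of 0.24 to 0.35. Cox4i1, a regulatory subunit that binds ATP, averaged 144.5 ± 14.8 RPKM in 5xFAD and 114.4 ± 9.7 RPKM in WT (SD, n = 9 and 7).

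In complex I the largest change was that of Ndufa1, a small accessory subunit needed for assembly of the membrane arm, on the X chromosome (37187588 to 37191163, minus strand). Ndufa1 was 62.7 to 96.6 RPKM in 5xFAD libraries (median 80.7) and 40.3 to 50.3 RPKM in WT libraries (median 44.1). Every 5xFAD library lay above every WT library, and the log2 change was 0.82 ± 0.084 (SE; limma adjusted p = 1.61e-07). Ndufa2, Ndufa6 and Ndufv3 were the other called members, with log2 changes of 0.32, 0.20 and 0.19. Of the 20 called members, Cox8a lost the call in 13 of 30 other settings, Ndufa6 and Ndufv3 in 12 each, Atp5j2 in 7, Atp5h in 3, and Ndufa2, Cox7a2, Atp5e, Atp5j and Atp5k in 1.

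In complex III, Uqcrh, the hinge protein that helps bind cytochrome c, lies on chromosome 4 (116066965 to 116075071, minus strand). It was 39.2 to 52.9 RPKM in 5xFAD libraries (median 50.4), against 30.8 to 37.0 RPKM in WT libraries (median 35.7). The groups did not overlap, and the log2 change was 0.46 ± 0.077 (SE; limma adjusted p = 0.000154). Uqcr10 and Uqcrq, small subunits of the same complex, rose by 0.33 and 0.24. The large core proteins Uqcrc1 and Uqcrc2 had differences of -0.14 and -0.09 and were not called (limma adjusted p = 0.169 and 0.276). In complex V the called members were Atp5e, Atp5k, Atp5j, Atp5j2 and Atp5h, which belong to the central stalk, the peripheral stalk or the membrane part, with log2 changes of 0.21 to 0.29. The catalytic subunits Atp5a1 and Atp5b were at 138.4 ± 2.8 and 114.2 ± 5.6 RPKM in 5xFAD and at 137.6 ± 13 and 109.5 ± 8.1 RPKM in WT (SD, n = 9 and 7), with no call.

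The endothelial markers moved with this comparison. Their summed level was 123.2 to 841.9 RPKM in 5xFAD and 93.9 to 204.9 RPKM in WT, and 3 of the 8 were called higher. With the mean log2 level of these markers as a covariate, 10 members were called higher in place of 20. Cox6a2, Cox6a1, Ndufa1, Uqcrh, Uqcr10, Uqcrq, Cox4i1, Cox5b, Cox6b1 and Cox7a2l kept their calls in every setting run, this one included. The 7 microglial markers summed to 10490 to 13726 RPKM in 5xFAD and 13491 to 16451 RPKM in WT, and 5 of 7 were called lower in 5xFAD. Their part in the members' differences was not tested.

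**Figure D1:**
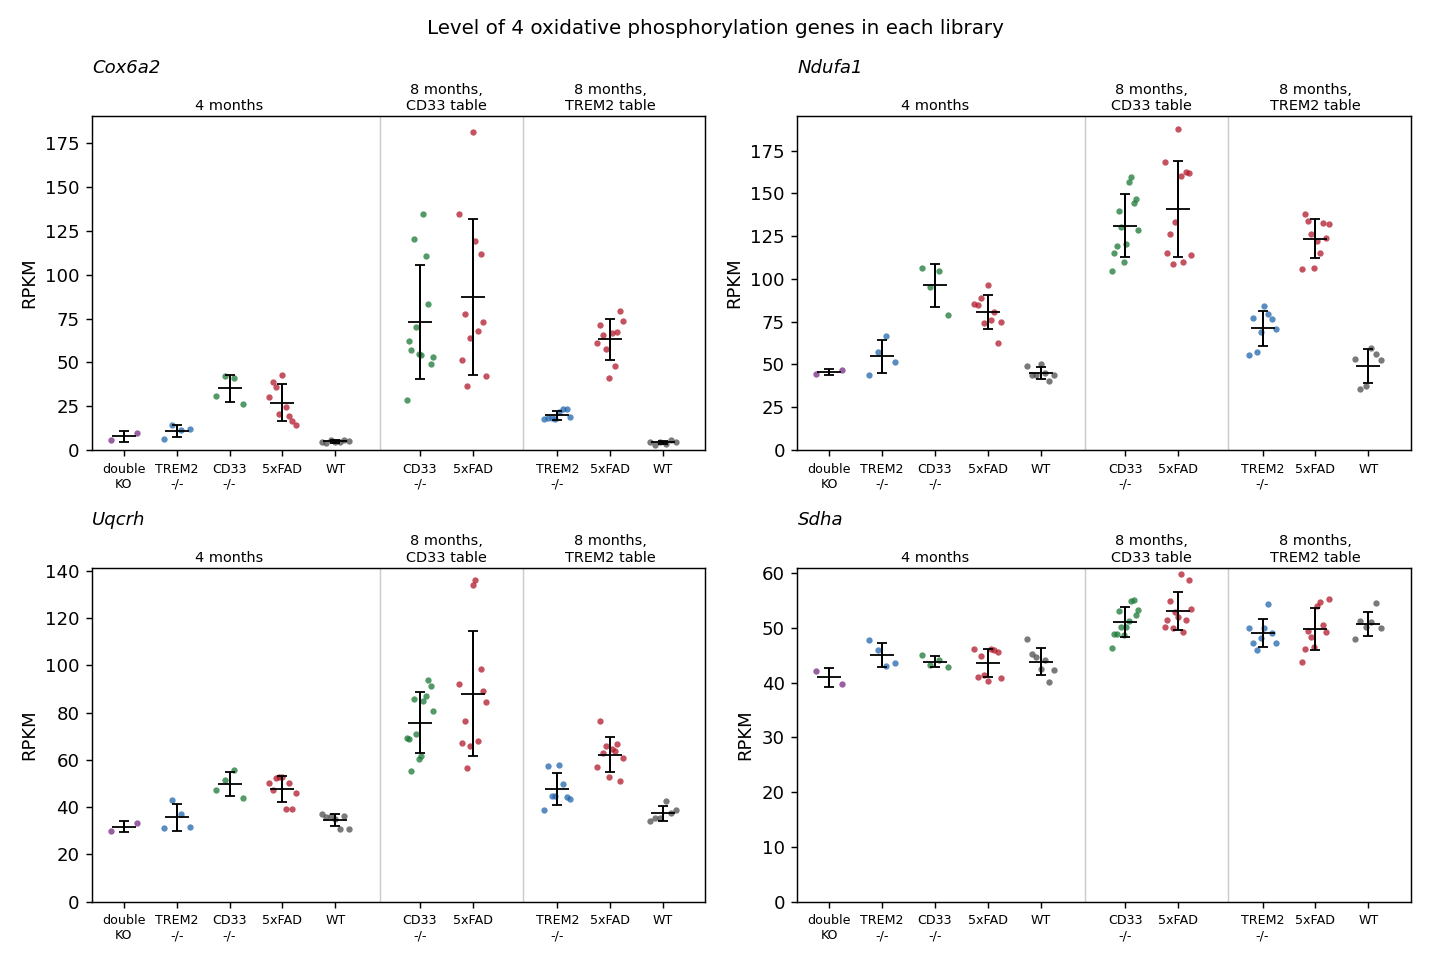
Level in RPKM (y axis) of Cox6a2, Ndufa1, Uqcrh and Sdha in every library of the 10 groups (x axis), with points for libraries and bars for the group mean ± SD; every knockout group also carries 5xFAD, and double KO stands for the 2 libraries labelled 5xFAD;CD33-/-;TREM2-/-, of which replicate 1 carries Cd33 reads. Cox6a2 lies between 41.3 and 79.5 RPKM in 5xFAD libraries of the 8-month TREM2 table, between 17.5 and 23.5 RPKM in 5xFAD;TREM2-/- libraries and between 3.11 and 5.57 RPKM in WT libraries, while the Sdha ranges of these groups overlap.

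At 8 months the difference covered most of the genes. In the table with TREM2 groups, 50 of 77 members (64.9%) were called higher in 5xFAD than in WT and none lower, where 58.8% of all 12622 genes tested were called, 28.3% higher and 30.5% lower. The members' median log2 difference was 0.35, against -0.02 for all genes. By complex, 23 of 37 in complex I, 6 of 8 in complex III, 11 of 14 in complex IV and 10 of 12 in complex V were called higher, and 0 of 4 in complex II. Under trimmed-mean scaling, 48 were called higher and 1 lower.

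Complex IV again held the largest single change. Cox6a2 was 41.3 to 79.5 RPKM in 5xFAD (median 66.1) and 3.11 to 5.57 RPKM in WT (median 4.48), a log2 change of 3.72 ± 0.12 (SE; limma adjusted p = 2.57e-17), or 13.2-fold. Cox6a1 was 106.6 to 176.2 RPKM in 5xFAD (median 132.4) and 70.9 to 89.9 RPKM in WT (median 77.4), a log2 change of 0.76 ± 0.084 (SE; limma adjusted p = 5.68e-08). Neither gene had overlapping groups.

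Cox8a, Cox6b1, Cox4i1, Cox7a2l, Cox7a2 and Cox6c rose by 0.58 to 0.68 on the log2 scale, and Cox5a, Cox5b and Cox7b by 0.39 to 0.49. Cox6b1, which binds cytochrome c oxidase on its outer face and had the highest mean level of the complex at 4 months, averaged 187.4 ± 11.4 RPKM in 5xFAD and 122.4 ± 10.5 RPKM in WT (SD, n = 10 and 6). The members of complex IV that were not called were Cox7c, Cox7a1, an isoform known from muscle, and Cox6b2, an isoform known from testis. Their log2 differences were 0.23, 0.29 and 0.12.

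In complex I, Ndufa1 was 105.7 to 138.2 RPKM in 5xFAD (median 124.9) and 35.7 to 59.5 RPKM in WT (median 52.8), a log2 change of 1.34 ± 0.11 (SE; limma adjusted p = 3.65e-10). Its groups did not overlap. Ndufa2, Ndufa6 and Ndufb9, all accessory subunits, rose by 0.61, 0.61 and 0.56. The called genes were unevenly spread over the roles in complex I. The complex is built on core subunits that hold the flavin, the iron-sulphur clusters and the quinone site, and on accessory subunits around them. None of the 7 nuclear core subunits was called, and their log2 differences lay between -0.13 and 0.09 with a median of 0.03. The other 30 genes with Nduf names were counted as accessory subunits. Of these, 23 were called higher, and the median of the 30 was 0.36. They include Ndufa4, whose protein is also placed in complex IV, and Ndufa4l2, 1 of the 23 and described below. Ndufv1, the subunit that binds NADH, averaged 33.6 ± 2.9 RPKM in 5xFAD and 32.4 ± 1.7 RPKM in WT (SD, n = 10 and 6). This split was drawn after the values were seen and is given without a test. The core genes were also longer, 956 to 3967 bases with a median of 2126, than the accessory genes, with a median of 1211.

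In complex III, Uqcrh was 50.9 to 76.6 RPKM in 5xFAD (median 63.2) and 34.3 to 42.6 RPKM in WT (median 36.5), a log2 change of 0.72 ± 0.086 (SE; limma adjusted p = 1.94e-07). Uqcr10, Uqcr11, Uqcrq, Uqcrb and the Rieske iron-sulphur protein Uqcrfs1 rose by 0.36 to 0.62. As at 4 months, the core proteins Uqcrc1 and Uqcrc2 were not called, with log2 differences of -0.06 and 0.08. In complex V, Atp5j2, Atp5e, Atp5j and Atp5k rose by 0.54 to 0.58. Atp5b, the catalytic beta subunit, rose by 0.21 and the gamma subunit Atp5c1 by 0.25, and Atp5a1, the alpha subunit, had a difference of 0.09 (limma adjusted p = 0.0559).

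Ndufa4l2, a low member known in the mouse brain from pericytes, was 1.96 to 5.66 RPKM in 5xFAD (median 3.25) and 0.634 to 1.78 RPKM in WT (median 1.28). Its log2 change of 1.18 ± 0.24 (SE; limma adjusted p = 0.000263) was 0.27 with no call when the mean log2 level of the endothelial markers was a covariate. Cox4i2, an isoform left out by the filter and likewise known from pericytes, averaged 1.56 ± 0.55 RPKM in 5xFAD and 0.532 ± 0.34 RPKM in WT (SD, n = 10 and 6). The 6 mural cell markers summed to 102.7 to 259.5 RPKM in 5xFAD and 40.3 to 75.6 RPKM in WT, and 6 of 6 were called higher. Their part in the levels of Ndufa4l2 was not tested.

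For the whole set, the 8 endothelial markers were called higher in 5xFAD, 8 of 8, and with their mean log2 level as a covariate 51 members were called higher in place of 50. Of the 8 oligodendrocyte markers, 6 were called lower in 5xFAD, with summed levels of 101.7 to 187.6 RPKM in 5xFAD and 109.4 to 366.3 RPKM in WT. Of the 7 microglial markers, 6 were called lower, with summed levels of 7000 to 11424 RPKM in 5xFAD and 13208 to 15050 RPKM in WT. The 5 erythrocyte markers were called higher, 5 of 5, with summed levels of 26.0 to 103.2 RPKM in 5xFAD and 17.5 to 34.4 RPKM in WT. The part of these in the members' differences was not tested.

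**Figure D2:**
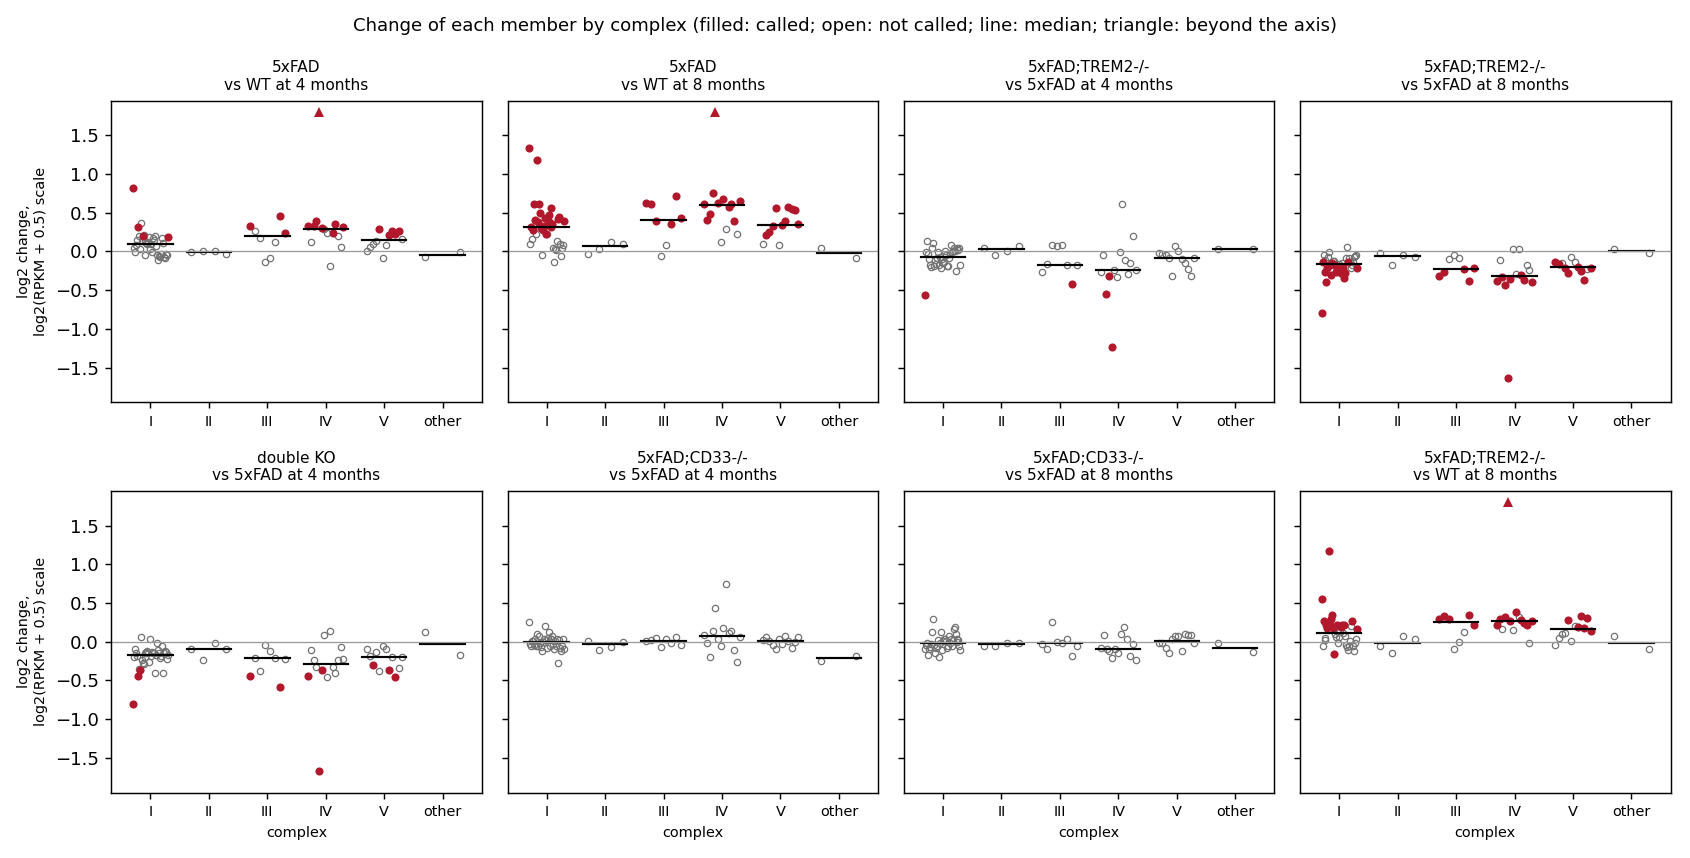
Log2 change of each member (y axis), by complex (x axis), in the 8 comparisons; filled points passed an adjusted p of 0.05, open points did not, lines are medians, and triangles lie beyond the axis. At 8 months 23, 6, 11 and 10 members of complexes I, III, IV and V are filled above 0 for 5xFAD against WT, none of complex II is, and for 5xFAD;TREM2-/- against 5xFAD 40 members are filled below 0.

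The 4-month and 8-month differences between 5xFAD and WT come from separate libraries. Over the 77 members their Pearson correlation was 0.962 and their Spearman correlation 0.882, and 63 had the same sign. As 57 of the 77 were above 0 at 4 months and 71 at 8 months, many would share a sign even if unrelated. No such value over all genes is given here. Without Cox6a2 the values were 0.881 and 0.877 over 76 genes. These are correlations across genes, which are not independent replicates and share length and base composition between the 2 ages, and no p is given. The ages were in separately normalised tables, so the change with age was not tested.

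**Figure D3:**
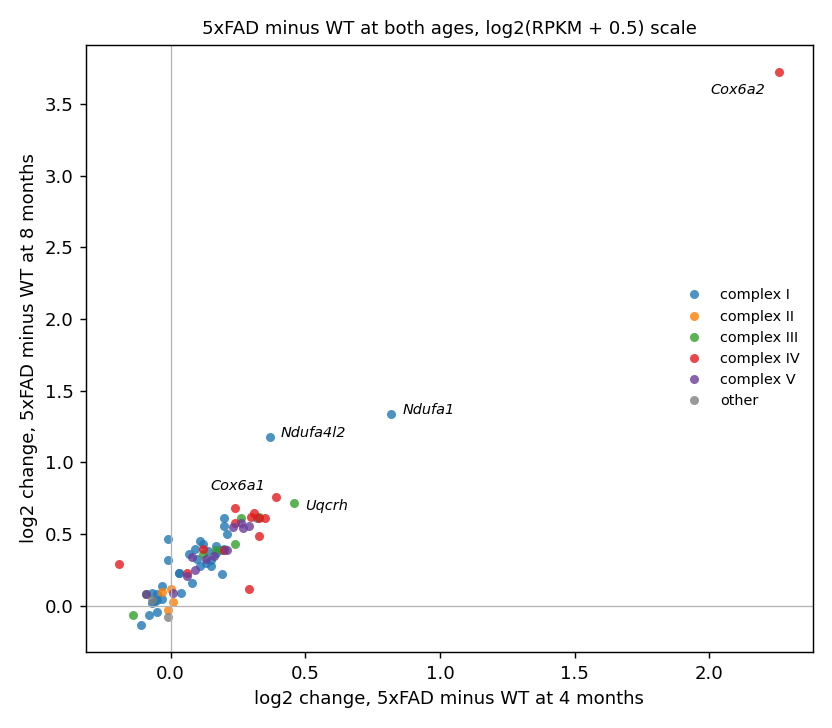
Log2 change between 5xFAD and WT at 4 months (x axis) and at 8 months (y axis) for the 77 members, coloured by complex. Cox6a2 lies apart at 2.26 and 3.72, Ndufa1 follows at 0.82 and 1.34, and 63 of the 77 points have the same sign at both ages. Of the points, 57 lie above 0 at 4 months and 71 at 8 months.

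In 5xFAD against WT at 8 months, 12 of the 17 genes with a motif and 30 of the 44 without were called higher, with median log2 differences of 0.39 and 0.34. At 4 months 7 of the 17 and 9 of the 44 were. In 5xFAD;TREM2-/- against WT at 8 months 11 of the 17 were called higher and 1 lower, and 17 of the 44 were called higher. In 5xFAD;TREM2-/- against 5xFAD at 8 months 8 of the 17 and 25 of the 44 were called lower, with medians of -0.2 in both. Of all genes, 28.3% were called higher in 5xFAD against WT at 8 months and 8.95% at 4 months. In 5xFAD;TREM2-/- at 8 months 19.9% of them were called higher and 22.4% lower than in WT, and 10.3% lower than in 5xFAD. The difference between genes with and without a motif was not tested. Among the printed promoters, Ndufa1, with no motif in its window, rose by 1.34, Uqcrh and Uqcr11, with the ETS motif, by 0.72 and 0.61, Atp5j, with the YY1 motif, by 0.58, and Atp5k and Ndufa8, with the NRF1 core, by 0.54 and 0.30.

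Between 5xFAD;TREM2-/- and 5xFAD microglia, the members called were all lower in 5xFAD;TREM2-/-, 5 of 77 at 4 months and 40 of 77 at 8 months. TREM2 is a lipid-sensing receptor of microglia through which they respond to amyloid plaques. At 4 months no member was called higher, and 2.39% of all genes were called, 2.00% lower and 0.392% higher. The 5 were Cox6a2, Ndufa1, Cox5b, Uqcrh and Cox6a1, and all 5 were among the 20 called higher in 5xFAD against WT. The 2 comparisons share the 5xFAD libraries, so the shared names are no separate evidence. The members' median log2 difference was -0.08, against 0.02 over all genes.

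At 4 months Cox6a2 was at 6.18, 14.3, 11.3 and 12.2 RPKM in the 4 5xFAD;TREM2-/- libraries, against 14.3 to 42.8 RPKM in 5xFAD libraries. The groups met at 14.3 RPKM, and the log2 change was -1.23 ± 0.25 (SE; limma adjusted p = 0.00551). Ndufa1 was at 43.9, 57.0, 66.4 and 51.5 RPKM in 5xFAD;TREM2-/-, against 62.7 to 96.6 RPKM in 5xFAD, a log2 change of -0.56 ± 0.10 (SE; limma adjusted p = 0.00147). Cox5b, a zinc-binding subunit of complex IV on chromosome 1 (36691449 to 36693681, plus strand), was at 12, 16.7, 19.2 and 16.4 RPKM in 5xFAD;TREM2-/-, against a median of 23.2 and a highest value of 28.0 RPKM in 5xFAD. The groups did not overlap, with a log2 change of -0.55 ± 0.093 (SE; limma adjusted p = 0.000641).

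Uqcrh was at 31, 43.1, 37.1 and 31.7 RPKM in 5xFAD;TREM2-/- and at 39.2 to 52.9 RPKM in 5xFAD, with a log2 change of -0.42 (limma adjusted p = 0.0105). Cox6a1 was at 75, 93.6, 82.1 and 86.0 RPKM in 5xFAD;TREM2-/- and at 92.6 to 120.9 RPKM in 5xFAD, with a log2 change of -0.32 (limma adjusted p = 0.0203). Ndufa1 and Cox5b kept their calls in all settings run. Without 5xFAD;TREM2-/- replicate 1, Cox6a2, Uqcrh and Cox6a1 were not called and 2 members remained.

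At 8 months the 40 members were 51.9% of the set, where 17.3% of all genes were called, 10.3% lower and 7.04% higher. The members' median was -0.18 and that of all genes 0.02. By complex the calls were 19 of 37 in complex I, 0 of 4 in complex II, 5 of 8 in complex III, 8 of 14 in complex IV and 8 of 12 in complex V.

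Cox6a2 was 17.5 to 23.5 RPKM in 5xFAD;TREM2-/- (median 18.5), below the 5xFAD range of 41.3 to 79.5 RPKM and above the WT range of 3.11 to 5.57 RPKM. The 3 groups did not overlap, and the log2 changes were -1.63 ± 0.11 against 5xFAD (SE; limma adjusted p = 1.2e-10) and 2.09 ± 0.13 against WT (adjusted p = 3.09e-11). Ndufa1 was 55.6 to 84.2 RPKM in 5xFAD;TREM2-/- (median 73.6), against 105.7 to 138.2 RPKM in 5xFAD and 35.7 to 59.5 RPKM in WT. It was separate from 5xFAD and overlapped WT, with log2 changes of -0.80 ± 0.099 (SE; limma adjusted p = 2.13e-06) and 0.55 ± 0.11 (adjusted p = 0.000411).

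Uqcrh was 38.9 to 58.0 RPKM in 5xFAD;TREM2-/- (median 44.7), overlapping both 5xFAD and WT, with log2 changes of -0.38 and 0.34 (limma adjusted p = 0.00116 and 0.00382). Cox6a1 was 81.4 to 114.8 RPKM (median 96.7), with log2 changes of -0.44 and 0.32 (limma adjusted p = 0.000191 and 0.00503). Cox4i1 was 121.2 to 148.7 RPKM in 5xFAD;TREM2-/- (median 133.9), wholly below the 5xFAD libraries at 154.0 to 195.5 RPKM (log2 change -0.38; limma adjusted p = 7.68e-05). Cox8a, Ndufa2 and Ndufb9 were likewise separate from 5xFAD, with log2 changes of -0.39, -0.39 and -0.34. Of the 30 genes counted as accessory subunits of complex I, 18 were called lower.

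Against WT, 5xFAD;TREM2-/- microglia at 8 months had 36 members called higher and 1, Ndufa9, lower, where 42.3% of all genes were called, 19.9% higher and 22.4% lower. The median was 0.16, against -0.03 for all genes. With the GAa number, a code in the library titles, as a term in the fit, 27 were called higher and 1 lower, and Ndufa11, Ndufs6, Ndufa3, Ndufa5, Cox7b, Atp5j2, Uqcrq and Atp5k were among those that lost the call. Under trimmed-mean scaling the split was 19 higher and 5 lower, with library weights it was 28 and 8, and with the endothelial marker level as a covariate 14 were higher and none lower. In that fit Ndufa9 had a log2 change of 0.06, against -0.16 without the covariate. The endothelial markers were called higher in 5xFAD;TREM2-/- than in WT, 8 of 8, and 0 of 8 were called between 5xFAD;TREM2-/- and 5xFAD. The 7 microglial markers were called lower than in WT, 7 of 7, with summed levels of 7461 to 11302 RPKM in 5xFAD;TREM2-/- and 13208 to 15050 RPKM in WT. The mural markers were called higher, 6 of 6, with 70.5 to 366.5 RPKM in 5xFAD;TREM2-/- and 40.3 to 75.6 RPKM in WT. The erythrocyte markers were also called higher, 5 of 5, with 28.2 to 167.3 RPKM in 5xFAD;TREM2-/- and 17.5 to 34.4 RPKM in WT. The oligodendrocyte markers summed to 133.7 to 281.1 RPKM in 5xFAD;TREM2-/-, and 4 of 8 were called higher than in 5xFAD. Their part in the members' differences was not tested. Ndufa4l2 was at 3.77 ± 1.88 RPKM in 5xFAD;TREM2-/- and 3.57 ± 1.13 RPKM in 5xFAD (SD, n = 8 and 10), a log2 difference of -0.01 with no call.

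**Figure D4:**
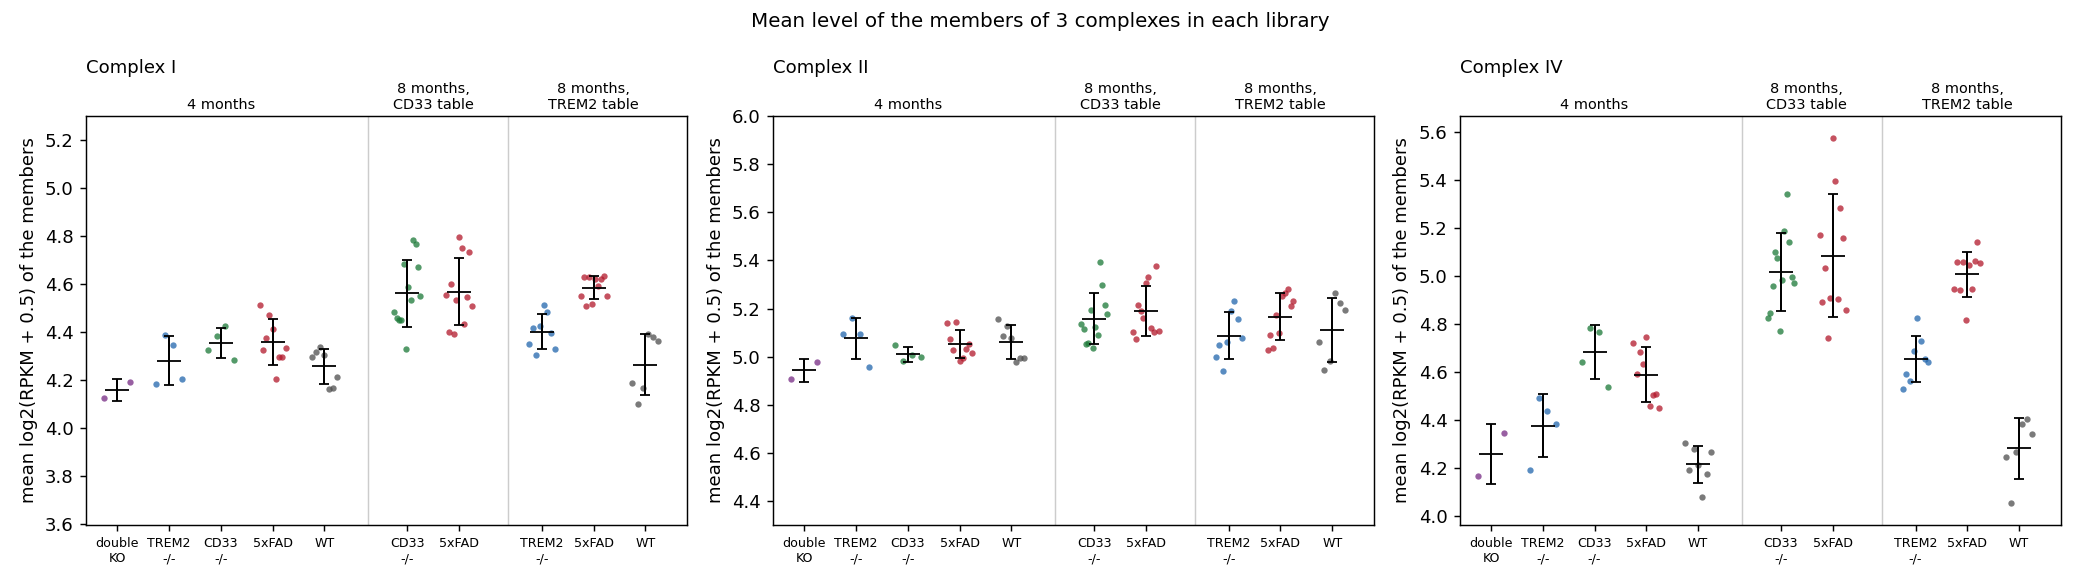
Mean log2(RPKM + 0.5) over the members of complexes I, II and IV in each library (y axis), by group (x axis), with the group mean ± SD. Complex IV means are 4.82 to 5.14 in 5xFAD, 4.53 to 4.83 in 5xFAD;TREM2-/- and 4.06 to 4.4 in WT at 8 months, and those of complex II are 5.03 to 5.28, 4.94 to 5.23 and 4.94 to 5.26. Complex IV means include Cox6a2, with a log2 change of 3.72 between 5xFAD and WT at 8 months, where the median of the 14 members was 0.59.

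The mean over all 77 members was 4.74 to 4.90 in 5xFAD, 4.53 to 4.76 in 5xFAD;TREM2-/- and 4.27 to 4.59 in WT libraries at 8 months, on the log2(RPKM + 0.5) scale. The 5xFAD and WT libraries did not overlap, and those of 5xFAD;TREM2-/- overlapped both. At 4 months it was 4.39 to 4.60 in 5xFAD;TREM2-/-, 4.46 to 4.72 in 5xFAD and 4.33 to 4.52 in WT libraries, and each pair of groups overlapped. Libraries of different groups share GAa numbers, so the means could also be set side by side within a number, here without a test. At 4 months the 5xFAD mean was above the WT mean in 6 of 6 such sets, by 0.05 to 0.30. At 8 months it was above in 4 of 4, by 0.20 to 0.51. The 5xFAD;TREM2-/- mean was below the 5xFAD mean in 6 of 6 sets at 8 months, by differences of -0.31 to -0.13, and in 3 of 4 at 4 months, where they ran from -0.32 to 0.08. It was above the WT mean in 4 of 4 sets at 8 months, by 0.01 to 0.27.

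The group labelled 5xFAD;CD33-/-;TREM2-/- held 2 libraries, and the library labelled replicate 1 carried Cd33 reads against its label. In these 2 libraries 11 members were called lower than in 5xFAD and none higher, where 3.75% of all genes were called, 3.41% lower and 0.338% higher. The members' median was -0.19, against -0.02 for all genes, and 72 of 77 were below 0. Cox6a2 was at 5.72 and 9.99 RPKM in 5xFAD;CD33-/-;TREM2-/-, below the 5xFAD range of 14.3 to 42.8 RPKM (log2 change -1.67 ± 0.32, SE; limma adjusted p = 0.00298).

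Ndufa1 was at 44.5 and 46.7 RPKM in 5xFAD;CD33-/-;TREM2-/-, below the 5xFAD range of 62.7 to 96.6 RPKM (log2 change -0.80 ± 0.13, SE; limma adjusted p = 0.000506). Uqcrh was at 30.1 and 33.5 RPKM, against 39.2 to 52.9 RPKM in 5xFAD (log2 change -0.58; limma adjusted p = 0.00498). The other 8 called were Ndufa4, Ndufa2, Uqcr10, Cox4i1, Cox6b1, Atp5j2, Atp5h and Atp5c1, with log2 changes of -0.30 to -0.45. Without the library labelled replicate 1, 3 members were called, and Cox6a2 and Uqcrh were not, at log2 changes of -1.30 and -0.50. Without the other library 5 were called, and 1 was called with the GAa number as a term in the fit. The effect of CD33 loss with TREM2 absent minus that with TREM2 present was called for 0 of the 77 members by limma. It was also called for 0 of all 13024 genes tested, so the absence of calls is not particular to the members. Among the members, 13 had an unadjusted p under 0.05, and the smallest limma adjusted p was 0.91.

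Loss of CD33 alone gave no call among the members at either age. CD33 is an inhibitory receptor that binds sialic acid on cell surfaces. At 4 months 0 of 77 were called by limma, where 4.90% of all genes were called, 1.90% higher and 3.00% lower. An unadjusted p under 0.05 was found for 6 of the 77, against 3595 of all 13024 genes. At 8 months 0 of 76 tested were called, where 3.30% of all genes were called, 2.95% higher and 0.344% lower. Here 0 of the 76 had an unadjusted p under 0.05, against 1530 of all 11345 genes. The members' median log2 difference was 0.01 at 4 months and -0.02 at 8 months. Weighting the libraries by their quality gave 11 calls at 4 months, 7 higher and 4 lower.

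Cox6a2 was at 30.9, 42.5, 41.1 and 26.5 RPKM in 5xFAD;CD33-/- at 4 months, against 14.3 to 42.8 RPKM in 5xFAD (log2 difference 0.44 ± 0.25, SE; limma adjusted p = 0.246). Ndufa1 was at 106.3, 95.3, 104.6 and 78.7 RPKM, against 62.7 to 96.6 RPKM in 5xFAD (0.26 ± 0.10; limma adjusted p = 0.107). Cox7a1, a low member, averaged 1.49 ± 1.00 RPKM in 5xFAD;CD33-/- and 0.623 ± 0.37 RPKM in 5xFAD (SD, n = 4 and 9; limma adjusted p = 0.117), and Atp5sl had a log2 difference of -0.18 (adjusted p = 0.144).

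At 8 months Cox6a2 ranged from 28.8 to 134.9 RPKM in 5xFAD;CD33-/- (median 59.6) and from 36.3 to 181.6 RPKM in 5xFAD (median 73.2). This spread within each group was wider than in the other 8-month table, and the log2 difference was -0.21 ± 0.27 (SE; limma adjusted p = 0.728). Ndufa1 was 104.6 to 159.4 RPKM in 5xFAD;CD33-/- (median 129.3) and 108.5 to 187.5 RPKM in 5xFAD (median 133.2). The smallest p-values were those of Ndufb10, Ndufa4l2 and Ndufb2, with log2 differences of -0.20, 0.29 and 0.12 (limma adjusted p = 0.418, 0.461 and 0.469). All 8 endothelial markers were called higher in 5xFAD;CD33-/- at this age, with summed levels of 195.4 to 782.5 RPKM against 102.9 to 367.3 RPKM in 5xFAD. With their mean log2 level as a covariate, Ndufb10 and Ndufa4l2 changed sign, to 0.01 and -0.10.

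None of the 4 genes of complex II was called in any of the 8 comparisons. Whether complex II differs from the other complexes was not tested. Complex II is also an enzyme of the tricarboxylic acid cycle, and it has no mitochondrially encoded subunit. Sdha, its flavoprotein, on chromosome 13 (74322254 to 74350280, minus strand), was 43.8 to 55.2 RPKM in 5xFAD (median 49.3), 46.0 to 54.3 RPKM in 5xFAD;TREM2-/- (median 48.5) and 47.9 to 54.5 RPKM in WT (median 50.6) at 8 months. The 3 groups overlapped throughout, with a log2 difference of -0.03 ± 0.049 between 5xFAD and WT (SE; limma adjusted p = 0.618).

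Sdhc and Sdhd, the membrane anchors, had log2 differences of 0.12 and 0.10 between 5xFAD and WT at 8 months (limma adjusted p = 0.0953 and 0.29). Sdhb, the iron-sulphur subunit, came nearest to a call. It averaged 26.0 ± 2.5 RPKM in 5xFAD;TREM2-/- and 29.6 ± 2.3 RPKM in 5xFAD at 8 months (SD, n = 8 and 10; limma adjusted p = 0.0524). At 4 months it averaged 25.1 ± 0.29 RPKM in 5xFAD;CD33-/-;TREM2-/- and 29.8 ± 1.8 RPKM in 5xFAD (SD, n = 2 and 9; limma adjusted p = 0.0515).

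The subunits encoded by mitochondrial DNA were counted in the same way. Of 13 such genes 7 passed the filter, and mt-Atp8 was listed at 0 in every library. In WT at 4 months and 5xFAD;TREM2-/- at 8 months, mt-Nd3, mt-Nd4l, mt-Co2, mt-Co3 and mt-Atp6 were also at 0 in every library. In 5xFAD of the 8-month CD33 table only mt-Nd3 and mt-Nd4l were at 0 throughout beside mt-Atp8. The reason for these zeros was not tested, so the set is covered only in part. At 8 months 1 of the 7 was called higher in 5xFAD than in WT and 1 lower: mt-Co1, a catalytic subunit of complex IV, averaged 2303 ± 270 RPKM in 5xFAD and 1957 ± 204 RPKM in WT (limma adjusted p = 0.0316), and mt-Nd2 averaged 865 ± 104 and 1011 ± 127 RPKM in these groups (adjusted p = 0.0263; SD, n = 10 and 6). Of all genes, 28.3% were called higher and 30.5% lower in that comparison. None of the 7 was called in the other 7 comparisons, where 2.39% to 42.3% of all genes were called. Cyc1, cytochrome c1 of complex III, whose name lies outside the rule, averaged 55.4 ± 6.9 RPKM in 5xFAD and 53.5 ± 7.8 RPKM in WT at 8 months, with no call.

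Assembly factors, the proteins that build the complexes, went both ways, with 6 of 40 called higher and 12 lower in 5xFAD against WT at 8 months, where 28.3% of all genes were called higher and 30.5% lower, so their share of lower calls was near that of all genes. Coa5 and Uqcc2 rose by 0.46 and 0.44, and Sco1, which delivers copper to complex IV, and Ndufaf7 fell by 0.32 and 0.26. Of 10 regulators of mitochondrial biogenesis 9 were called lower and none higher, against the same 30.5% and 28.3% of all genes. Tfam, which maintains mitochondrial DNA, averaged 4.51 ± 0.40 RPKM in 5xFAD and 5.7 ± 0.42 RPKM in WT (log2 change -0.31; limma adjusted p = 0.000141). Esrra and Nrf1 had log2 changes of -0.32 and -0.19, and Yy1 and Gabpa of -0.19 and -0.15. In 5xFAD;TREM2-/- against 5xFAD at 8 months 1 of the 10 regulators, Polrmt, was called higher (0.17) and none lower. Of all genes, 7.04% were called higher and 10.3% lower in that comparison. In 5xFAD against WT at 4 months no regulator was called, and 2 of 41 assembly factors were higher and 1 lower. Of all genes, 8.95% were called higher and 7.79% lower there, so these counts were near or below the shares of all genes. Of 18 genes of the tricarboxylic acid cycle, 5 were called higher, a share near the 28.3% of all genes, and 2 lower in 5xFAD at 8 months. Idh2, the mitochondrial NADP-dependent isocitrate dehydrogenase, was at 28.2 ± 3.3 RPKM in 5xFAD and 47.4 ± 3.3 RPKM in WT (log2 change -0.75; SD, n = 10 and 6).

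Of the 77 genes, 34 had at least 1 window of 50 bases, the read length, that also occurs in another annotated gene. In Atp5h, Ndufa12, Cox7c and Ndufs5 at least 50% of windows did, and in Cox5b, Uqcrb and Atp5o 40.7%, 43.2% and 40.8%, so their levels are uncertain. Ndufa1, Cox6a2, Cox4i1 and Ndufa4l2 had none, Uqcrh had 7.8% and Cox6a1 12.3%. Of the genes left out by the filter, Atp5g1 had 66.0%, Atp5g2 100%, Atp5l 68.5% and Atp5l2 73.4%, so their low levels are uncertain too. Cox4i2, Cox8b, Cox7b2 and Cox8c had none. Whether counting used strand is not given in the sources used here.

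Gene length moved with the calls. Of 28 members of at most 1000 bases, 24 were called higher in 5xFAD against WT at 8 months, and of 49 longer members 26 were. Of all tested genes of at most 1000 bases, 34.7% were called higher and 7.91% lower, with a median log2 difference of 0.20, against 0.51 for the short members and 0.25 for the longer members. In 5xFAD;TREM2-/- against 5xFAD, 17 of the 28 short and 23 of the 49 longer members were called lower, against 15.4% of all short genes. The part of length in these differences was not tested.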

How the data were processed

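Messenger RNA of sorted brain cells was sequenced as stranded single-end libraries, per the labels' protocols. The authors deposited RPKM values per gene in 3 tables. Alignment with STAR to mm10 and counting with HTSeq are named in the submitters' processing notes, which also name edgeR without its role. The sources used here give no versions, annotation or strand setting.

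RPKM multiplied by gene length gave whole multiples of a single step in each library, within 0.05 reads, so reads per library could be recovered. Their totals were 21.19 to 79.65 M reads. No pair of libraries agreed within sampling noise.

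Levels were tested as log2(RPKM + 0.5) with limma 3.58.1 in R 4.3.3 (trend and robust options), all groups of a table in 1 fit. Genes with at least 1 RPKM in n libraries were tested, n being the size of the smallest group in the table (2, 11 and 6). P-values were two-sided and Benjamini-Hochberg adjusted over all genes of a table, with a call at an adjusted p under 0.05. After a log2 change ± is the SE, and after a mean it is the SD. The procedure was tested on simulated data. Alternatives covered the pseudocount, filters, scaling, moderation, library weights, covariates, the replicate block and leaving out each library.

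The labels do not say that libraries came from separate animals, and the titles of 3 carry 2 animal numbers. The members and the gene lists were chosen with earlier results of these data known. Genes were named by a rule: the 4 largest called changes in each direction per comparison, or the 3 smallest p-values where fewer than 3 were called; the highest member of each complex; isoform sets; the 4 complex II genes; and up to 3 called genes per list. Other members, and the split of complex I into core and accessory subunits, were chosen after their values were seen. Positions are from GENCODE M21 (GRCm38), and promoters are from RefSeq GRCm38.p6. Results of 1 member are not reported here.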

Additional observations from a re-analysis of the deposited data

Results flagged for a closer look

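For 33 named genes, including those left out by the filter, 224 groups of 4 to 10 libraries were examined for a library lying apart from the rest of its group by Dixon's 95% criterion. It was met 12 times, and chance alone flags about 1 in 20 groups. No explanation was tested for these values.

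Among the expressed subunits, Cox6b1 was 146.8 RPKM in 5xFAD;CD33-/- replicate 4 at 4 months, with the other libraries at 162.5 to 165.3 RPKM. Cox6b1 was 161.5 RPKM in 5xFAD replicate 5 of the 8-month TREM2 table, with the others at 181.3 to 202.5 RPKM. In 5xFAD;CD33-/- replicate 1 at 4 months Cox8a was 135.4 RPKM, with the others at 124.9 to 125.8 RPKM, and Sdhc was 16.8 RPKM, with the others at 17.7 to 17.8 RPKM. In 5xFAD replicate 1 at 4 months Ndufa4l2 was 3.1 RPKM, with the others at 0.196 to 1.07 RPKM, and Cox4i2 was 1.06 RPKM, with the others at 0.101 to 0.542 RPKM.

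The rest concerned genes below or near the filter. Cox4i2 was 0.568 RPKM in WT replicate 13 at 4 months, with the others at 0.153 to 0.257 RPKM. Cox8b was 0.816 RPKM in 5xFAD;CD33-/- replicate 3 at 4 months (others 0 to 0.0809 RPKM). At 8 months it was 3.73 RPKM in 5xFAD replicate 9 of the TREM2 table (others 0.294 to 2.03 RPKM) and 5.61 RPKM in WT replicate 8 (others 1.4 to 2.56 RPKM). Atp5g1 was 0.46 RPKM in 5xFAD replicate 10 at 4 months (others 0.339 to 0.386 RPKM), and Atp5g2 was 0.727 RPKM in 5xFAD replicate 6 (others 0 to 0.355 RPKM).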

How the results depend on the processing

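The count of members called in 5xFAD against WT was 20 at 4 months and 10 with the endothelial marker level as a covariate, and 16 to 23 when each library was left out in turn. At 8 months it was 50, and 48 to 53 when each library was left out. Of the genes called in 5xFAD against WT, 10 of 20 at 4 months and 46 of 50 at 8 months were called in every setting run. The same held for 2 of 5 in 5xFAD;TREM2-/- against 5xFAD at 4 months, 0 of 11 in 5xFAD;CD33-/-;TREM2-/- against 5xFAD, 26 of 40 in 5xFAD;TREM2-/- against 5xFAD at 8 months and 8 of 37 against WT. For 5xFAD;TREM2-/- against 5xFAD at 4 months 5 were called, 2 with only these groups in the fit, 8 with the endothelial covariate, and 2 to 9 when each library was left out (2 without 5xFAD;TREM2-/- replicate 1, 9 without replicate 3, 3 without replicate 9). At 8 months 40 were called, 26 when scaled by total reads, and 31 to 43 when each library was left out. For 5xFAD;TREM2-/- against WT the count was 37, with 24 under trimmed-mean scaling, 14 with the endothelial covariate and 26 to 37 when each library was left out. For 5xFAD;CD33-/-;TREM2-/- against 5xFAD it was 11, with 4 with only these groups in the fit, 1 with the GAa number as a term, 6 with library weights, 17 with the endothelial covariate, 3 when scaled by total reads, 3 without the library whose Cd33 goes against its label, and 3 to 15 when each library was left out. For 5xFAD;CD33-/- against 5xFAD at 4 months it was 0, with 1 with the GAa number as a term, 11 with library weights and 0 to 2 when each library was left out (1 without 5xFAD;CD33-/- replicate 1, 2 without replicate 4). At 8 months it was 0 in every setting run. The cause of these shifts was not tested.

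With the endothelial covariate the log2 change reversed for Ndufa4l2 (-0.10) and Ndufb10 (0.01) in 5xFAD;CD33-/- against 5xFAD at 8 months, and for Ndufa9 (0.06) in 5xFAD;TREM2-/- against WT. Same-numbered libraries were not treated as pairs, since no comparison had every correlation between them above 0.1. This rule cannot exclude pairing. In 5xFAD;TREM2-/- against 5xFAD, 6 of 8 correlations were over 0.1 at 8 months (highest 0.673) and 0 of 3 at 4 months. In 5xFAD;CD33-/- against 5xFAD, 4 of 11 were over 0.1 at 8 months and 0 of 2 at 4 months. With the replicate block the counts were 17, 0, 9 and 15 at 4 months (5xFAD against WT, then the knockouts of CD33, of TREM2 and of both against 5xFAD), and 0, 52, 40 and 30 at 8 months (5xFAD;CD33-/- against 5xFAD, 5xFAD against WT, 5xFAD;TREM2-/- against 5xFAD and against WT). On recovered reads, voom in limma, an alternative chosen after seeing the data like the scaling by total reads, gave 20, 0, 5 and 11 at 4 months and 0, 50, 39 and 34 at 8 months, in the same order. The planned edgeR and DESeq2 alternatives were not run.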

Other observations

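Genes of glycolysis, the cytosolic route from glucose to pyruvate, were counted in the same way. At 8 months 13 of 18 were called higher in 5xFAD than in WT and none lower, with a median log2 difference of 0.56, where 28.3% of all genes were called higher and 30.5% lower. Tpi1 averaged 86.3 ± 13.8 RPKM in 5xFAD and 35.0 ± 2.3 RPKM in WT, and Gpi1 50.3 ± 5.1 and 27.5 ± 0.91 RPKM in these groups (SD, n = 10 and 6). Slc16a3, a lactate exporter, had a log2 change of 1.64 and Pkm, which makes pyruvate, of 1.08. In 5xFAD;TREM2-/- against 5xFAD 11 were called lower and 1 higher, against 10.3% and 7.04% of all genes, with log2 changes of -0.90 for Slc16a3, -0.68 for Tpi1 and -0.49 for Gpi1. In 5xFAD;TREM2-/- against WT 10 were called higher and 1 lower, against 19.9% and 22.4% of all genes. At 4 months 8 were called higher in 5xFAD than in WT (8.95% of all genes), 3 were lower in 5xFAD;TREM2-/- than in 5xFAD (2.00%), 3 were lower in 5xFAD;CD33-/-;TREM2-/- (3.41%) and 1 was higher in 5xFAD;CD33-/- (1.90%). These comparisons share the 5xFAD libraries.

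Of 7 genes of mitochondrial antioxidant defence and uncoupling, 5 were called higher in 5xFAD than in WT at 8 months (28.3% of all genes) and 4 lower in 5xFAD;TREM2-/- than in 5xFAD (10.3%). Sod2, the mitochondrial superoxide dismutase, averaged 10.4 ± 0.59 RPKM in 5xFAD;TREM2-/-, 13.6 ± 2.0 RPKM in 5xFAD and 9.08 ± 0.40 RPKM in WT (SD, n = 8, 10 and 6). Cytosolic ribosomal protein genes, which are also short and abundant, were called higher in 55 of 82 and lower in 9 in 5xFAD against WT at 8 months (28.3% and 30.5% of all genes). In 5xFAD;TREM2-/- against 5xFAD 42 were called lower and 2 higher (10.3% and 7.04%). Whether they and the oxidative phosphorylation genes differ for a shared reason was not tested.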
